A study of Rattus norvegicus with 35 samples.

Results

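CM-enriched fractions were examined for their expression response to ionising radiation (IR), in 3 RNA samples taken 24 h after X-rays (8.5 Gy, given at once) and 3 samples from sham-irradiated cells. These 6 arrays are all arrays of that comparison among the 35 of the series, and the response is described over all 8740 probe-sets tested. The cells came from ventricles of neonatal rats, were enriched for cardiomyocytes (CM) by pre-plating, and were kept in medium with a low serum content when they were irradiated. The controls went through a sham treatment at room temperature. A day later the cells of treated and control cultures alike were detached and sorted by size in an elutriation centrifuge, and the RNA of each CM-enriched fraction was read on its own Affymetrix rat array. These fractions were not pure CM, and the sources used here do not say how many animals went into a culture. The number in the sample title (1, 2 or 3) joins a sham and an irradiated sample to 1 experiment, called a pair here. The scan records give both arrays of pairs 1 and 2 the same experiment number, but irradiated array 3 has none. Pair 3 thus rests on the title and on the deviations of its arrays from their group means, which correlated (0.313). For comparison, the same dose in cultures of fibroblasts (3 pairs, neonatal rat heart, 24 h) was taken from the series. The title of fibroblast control 1 gives 0 Gy but neither a time nor a sham treatment. UVC at 10 J/m2 in CM-enriched fractions (2 pairs, 24 h, with mock-treated controls) was taken as well. Unlike the CM-enriched cultures, the fibroblasts had been subcultured, were grown to confluence in fetal bovine and not horse serum, and were not elutriated.

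X-rays break both strands of DNA. In cells with functional p53 the breaks stabilise this transcription factor, which turns on the cyclin-dependent kinase inhibitor Cdkn1a (p21), its own inhibitor Mdm2 and a set of other targets. Through p21 and the DREAM repressor complex, genes for mitosis and DNA replication are turned off, many of which carry CCAAT boxes and CHR elements (TTTGAA) close to their start. Ventricular CM leave the cell cycle soon after birth, whereas cardiac fibroblasts keep the capacity to divide.

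Intensities were brought to a common scale, raised to a floor where they were very low, and taken to log2 (normalized intensity). A value of 2.78 is the floor and carries no level of its own, so that a change to or from the floor is a lower limit of the true one. Changes are log2 values, irradiated over sham, from a limma fit to all 35 arrays with the numbered experiment as a block, given with their standard error (SE). A probe-set was called at an adjusted p under 0.05 over all probe-sets of the comparison. Between 18.1% and 22.5% of the probe-sets of an array lay at the floor, and Spearman correlations between the 6 arrays were 0.939 to 0.969. Irradiated array 3 stood apart from the other 5 in RNA quality: the ratio of 3′ to 5′ signal was 1.48 for GAPDH and 2.33 for actin, against 1.04 to 1.15 and 1.03 to 1.15. Its actin ratio was the highest of the 35 arrays, followed by 2.05 on an array of unstretched fibroblasts. This array was also the only one of scan 1, the other 5 belonging to scan 2, and irradiated arrays 1 and 3 came from lot 1 while the sham arrays and irradiated array 2 came from lot 2. Pair 2 was thus the only one with both arrays from 1 lot, and the changes within it are given beside the main results. The part of the RNA quality, the scan and the lot in the results was not tested beyond these values.

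Cells of the fractions were checked by marker genes. In the sham fractions the cardiac myosin heavy chain Myh6 was at 12.45 ± 0.185 (SD, n = 3) and troponin I (Tnni3) at 11.96 ± 0.18, against 6.32 ± 2.88 and 8.45 ± 1.04 in sham cultures of fibroblasts. The fibroblast genes Col1a1 (11.81 ± 0.45) and Dcn (11.05 ± 0.30) were also bright, though below their level in those cultures (12.98 ± 0.13 and 11.94 ± 0.42), so that the label of an enriched and not a pure fraction fits the markers. Endothelial genes were also found, Pecam1 at 9.02 ± 1.17 and the VEGF receptor Kdr at 7.82 ± 0.20, with Vwf dimmer at 3.98 ± 1.43. Of the 19 genes listed for macrophages and leukocytes, 4 were at the floor on all 6 arrays, among them the macrophage genes Cd74 and Csf1r. Others were above it in the sham fractions, such as Cd14 (7.18 ± 0.48), Lyz2 (6.92 ± 0.18), Ptprc (5.14 ± 0.50) and Cd48 (8.34 ± 0.71). Macrophages and other leukocytes are thus not shown to be absent. Sums of linear intensity over the marker lists overlapped between sham and irradiated fractions for every list, but some shifted one way within the pairs. The CM sum was lower after IR in all 3 pairs (77140 to 68800, 89620 to 86480 and 87120 to 86970) and the fibroblast sum higher in all 3 (32730 to 37110, 39370 to 41190 and 37230 to 38010), and the sums for smooth muscle and endothelial cells were lower in all 3. The part of these shifts in the results was not tested. The 26 CM genes summed to 77140 to 89620 in sham and 68800 to 86970 in irradiated fractions, and the 17 fibroblast genes to 32730 to 39370 and 37110 to 41190. The 11 endothelial genes summed to 3484 and 3475 in the sham and irradiated arrays of experiment 1, but to 929.4 to 1455 in the other 4 arrays. Sums were 10140 to 16430 (sham) and 7951 to 16030 (irradiated) for 11 genes of smooth muscle, 857.4 to 1377 and 951.4 to 1193 for 19 genes of macrophages and leukocytes, and 155.8 to 166.9 and 144.6 to 205.0 for 4 erythroid genes. No marker gene of the 6 lists was called, and the list medians of the change lay between -0.13 (endothelial cells) and 0.18 (fibroblasts). In RNA from such mixed fractions, fewer cells of a type and less RNA per cell cannot be told apart.

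**Figure D1:**
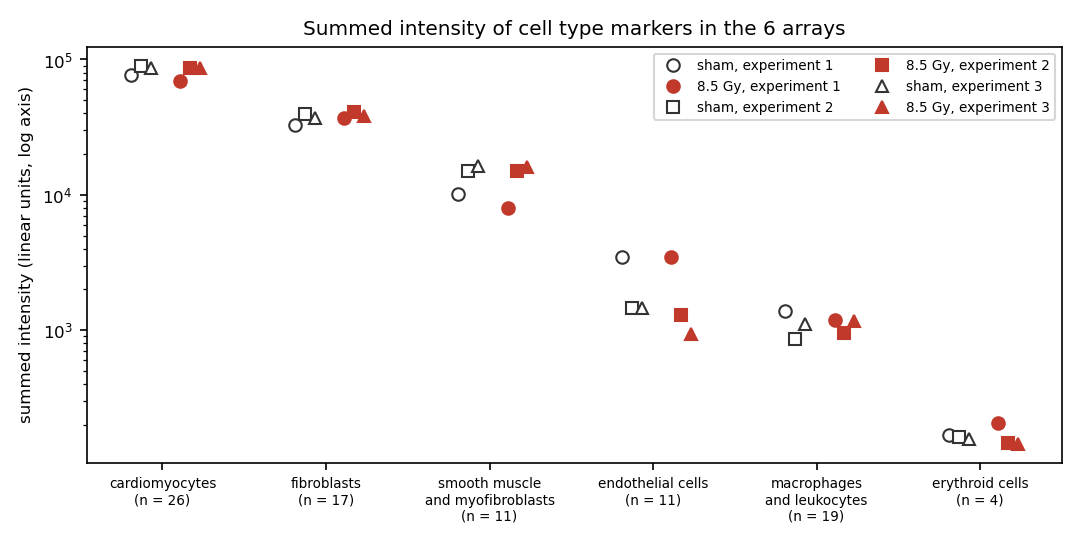
Summed linear intensity (log axis) of the marker genes of 6 cell types in the 3 sham (open) and 3 irradiated (filled) CM-enriched fractions, with the symbol showing the experiment. Sham and irradiated arrays overlap for all 6 lists, and both arrays of experiment 1 are highest in the endothelial list (3484 and 3475).

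At 24 h after IR, 25 probe-sets (0.286% of 8740) were higher and 39 (0.446%) were lower than in the sham fractions. At the level of the study, an adjusted p under 0.005, 11 were higher and 15 lower, or 0.297% in all. All 64 changed in the same direction in the 3 pairs, which the test favours. Sham and irradiated arrays did not overlap for 21 of the rises and 32 of the falls, against 4.35% (higher) and 4.11% (lower) of all probe-sets. The test favours this too, as the calls were made on these same arrays. The median rise was 0.92, 0.84 and 1.06 in pairs 1, 2 and 3, and the median fall was -1.47, -1.40 and -1.30, and the falls had the larger median in every pair, also within the single lot of pair 2. The called probe-sets with a single symbol stood for 20 genes that rose and 30 that fell, and 11 called probe-sets had no single symbol. When the same model was fitted to the 6 arrays alone, which leaves 2 residual degrees of freedom, limma called 0 probe-sets. In that fit 674 of the 8740 were at an unadjusted p under 0.05, and the smallest adjusted p was 0.429. Of the 64, 58 were at an unadjusted p under 0.05 there, on the same arrays that had given their calls. The calls thus rest on the spread estimated over all groups of the series. With the array lot as a further block, only pair 2 gives the change after IR, since pairs 1 and 3 differ in lot as well as dose. In that fit 49 probe-sets were higher and 48 lower, with 15 of the 53 called probe-sets with a single symbol among them. Without the replicate block 14 were higher and 23 lower, with 26 of the 53.

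**Figure D2:**
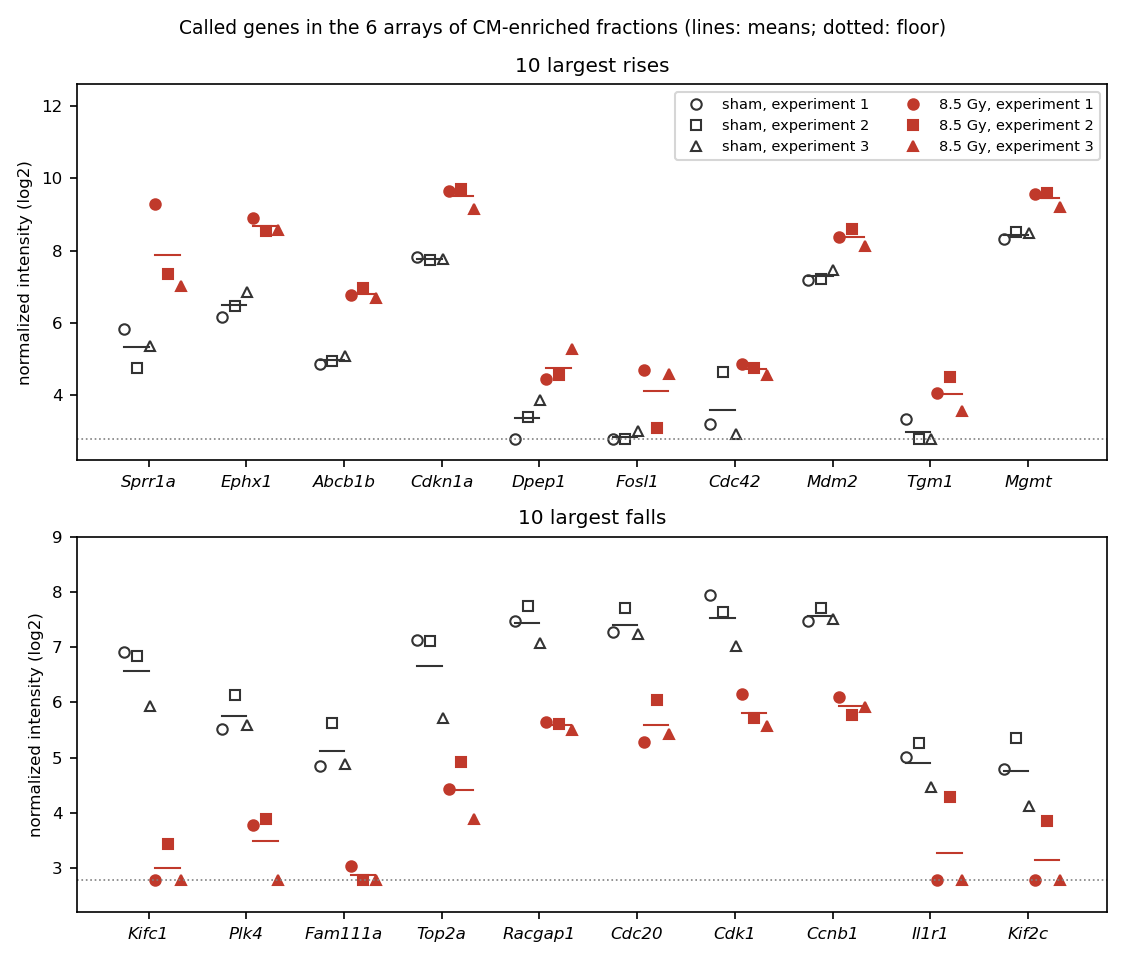
Normalized intensity (log2) of the 10 genes with the largest called rises (top) and falls (bottom) in each of the 6 arrays, sham open and irradiated filled, with lines at the group means and a dotted line at the floor of 2.78. The irradiated arrays lie above the sham arrays for all rises but Cdc42, whose sham array 2 (4.64) lies between the irradiated ones, and below them for all falls.

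Several targets of p53 were among the called rises. Ephx1, the microsomal epoxide hydrolase that detoxifies reactive epoxides, was at 6.15, 6.46 and 6.87 in sham fractions 1, 2 and 3, and at 8.92, 8.54 and 8.58 after IR. It rose by 2.19 (SE 0.15, limma adjusted p = 3.31e-05), a 4.55-fold change and the smallest p of all probe-sets. The drug efflux pump Abcb1b (a P-glycoprotein) stood at 4.86, 4.95 and 5.09 without and at 6.77, 6.98 and 6.69 with IR, a rise of 1.85 (SE 0.19, adjusted p = 0.000787). For both genes the lowest irradiated array was over 1.5 above the highest sham array.

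Cdkn1a, which holds cyclin-dependent kinases in check, had almost equal sham values (7.83, 7.74 and 7.78) and irradiated values of 9.65, 9.71 and 9.16. Its rise was 1.73 (SE 0.23, adjusted p = 0.00247), with the other Cdkn1a probe-set at 1.21 (adjusted p = 0.0713). Mdm2, the ubiquitin ligase that removes p53, was measured by 4 probe-sets, of which the brightest went from 7.18, 7.22 and 7.47 to 8.38, 8.61 and 8.13. This probe-set rose by 1.08 (SE 0.13, adjusted p = 0.00176), while the others gave 0.69, 0.14 and, at the floor on all arrays, 0. Cyclin G1 (Ccng1), another feedback regulator of p53, was among the brightest at 11.10, 11.62 and 11.68 in sham fractions, and reached 12.01, 12.14 and 12.38 after IR (0.71, SE 0.09, adjusted p = 0.00176). Its groups were separate, but the gap between the highest sham and the lowest irradiated array was under that of the genes above. Rps27l, a ribosomal protein-like gene known as a p53 target that is not in the list used here, rose by 0.73 (SE 0.07, adjusted p = 0.000400), though its probes may also read the close paralog Rps27. These 6 genes stayed called whichever pair was left out, but Abcb1b was not called without the replicate block (adjusted p = 0.376) nor Ccng1 under a block for the lot (adjusted p = 0.198).

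Of the 46 p53 targets listed, 16 were on the array. By the rule that 50% of the probe-sets of a gene must pass, 4 rose (Ephx1, Abcb1b, Ccng1 and Cdkn1a) and none fell, against 0.359% of all 4736 genes called higher and 0.528% called lower. Mdm2 passed with 1 of its 4 probe-sets only. The list was chosen with results of these data known. The median change was 0.37, with 0.04, 0.25 and 0.57 in pairs 1 to 3, while the median over all genes was 0.00. Of the members without a call, the stress cytokine Gdf15 (0.89), Zmat3 (0.67), Ptp4a1 (0.22), Tgfa (0.18) and the death receptor Fas (0.53, with 4 of the 6 arrays at the floor) had positive values. Casp1 (-0.64), Ddb2 (-0.27) and Igfbp3 (-0.16) had negative ones, and Gadd45a (-0.09) and the apoptosis gene Bid (-0.01) had values near 0. The other Zmat3 probe-set and the other 3 of Gadd45a had the opposite sign to the value given. Pcna, the sliding clamp of DNA replication and a p53 target as well, had a negative change (-0.83, adjusted p = 0.206).

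Sprr1a, a small proline-rich protein first known from the skin barrier and also made in stressed CM, showed the largest rise. The called probe-set was at 5.84, 4.76 and 5.36 in sham fractions and at 9.30, 7.34 and 7.01 after IR (2.56, SE 0.24, adjusted p = 0.000400). The groups were far apart, and irradiated array 1 stood well above the other 2. A brighter Sprr1a probe-set went from 7.76, 7.54 and 7.82 to 11.43, 8.85 and 8.15, again with array 1 highest, and was not called (1.77, adjusted p = 0.110). Tgm1, a transglutaminase that cross-links proline-rich proteins in the same barrier, was at the floor in sham arrays 2 and 3 and at 3.34 in sham array 1. It was at 4.07, 4.49 and 3.55 after IR (1.07, adjusted p = 0.0386), and lost its call without pair 2 (adjusted p = 0.203) or pair 3 (adjusted p = 0.0771). Nor was Tgm1 called with a higher floor, with a pseudocount (adjusted p = 0.134) or without the replicate block (adjusted p = 0.115).

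Dpep1, a membrane dipeptidase that cleaves leukotriene D4 and glutathione breakdown products, was dim in sham fractions (2.78, 3.41 and 3.87) and at 4.45, 4.55 and 5.28 after IR, a rise of 1.41 (SE 0.17, adjusted p = 0.00176). Mgmt, which repairs alkylated guanine, went from 8.34, 8.53 and 8.48 to 9.57, 9.59 and 9.22 (1.01, SE 0.15, adjusted p = 0.00538), but a second, dimmer Mgmt probe-set had a change of -0.17. The matrix protease Mmp2 rose by 0.79 (SE 0.09, adjusted p = 0.00103) in the brighter of its probe-sets, and the other was at 0.19. For these 3 genes the irradiated arrays lay above all sham arrays, and the calls held with any pair left out. Dpep1 was not called without the replicate block (adjusted p = 0.897), with a random block (adjusted p = 0.304), with a higher floor (adjusted p = 0.654) or under a block for the lot (adjusted p = 0.167), nor was Mgmt with the lot (adjusted p = 0.134).

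The other called rises were of several functions. Fosl1, an AP-1 subunit, was at or just above the floor in sham fractions (2.78, 2.78 and 3.00). After IR it was at 4.71, 3.09 and 4.58 (1.27, adjusted p = 0.0386), and was lost without pair 1 (adjusted p = 0.2) or pair 3 (adjusted p = 0.231). Nor was Fosl1 called with a higher floor, with a pseudocount (adjusted p = 0.0958), without the replicate block or under a block for the lot. Dglucy, a mitochondrial D-glutamate cyclase, rose by 0.97, the glutathione transferase Gsta1 by 0.88, the proton pump subunit Atp6v1d by 0.86 and the phospholipase Pla1a by 0.78. The complement protease C1s rose by 0.77 and Hsd11b1, which regenerates active glucocorticoid, by 0.62. The small GTPase Rap1b rose by 0.44 in 1 of its probe-sets. Each of these 7 calls was lost when 1 pair was left out, with a highest adjusted p of 0.069 for Dglucy and Hsd11b1, 0.122 for Gsta1, 0.205 for Atp6v1d, 0.217 for Pla1a, 0.220 for C1s and 0.256 for Rap1b. Pair 3 was among the pairs that these calls needed in all 7. A dim probe-set of the GTPase Cdc42 rose by 1.13 (adjusted p = 0.227 without pair 1 and 0.277 without pair 3), while its 3 brighter probe-sets had changes of 0.06 to 0.11.

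Genes of mitosis made up the largest group of falls. Kifc1, a kinesin that walks towards microtubule minus ends and focuses spindle poles, was at 6.92, 6.84 and 5.93 in sham fractions. After IR it was at the floor in arrays 1 and 3 and at 3.44 in array 2. It fell by 3.56 on the log2 scale (SE 0.35, adjusted p = 0.000480), or 11.8-fold with 2 arrays at the floor. Cdc20, which activates the anaphase-promoting complex, went from 7.27, 7.71 and 7.24 to 5.29, 6.04 and 5.43 (-1.82, SE 0.17, adjusted p = 0.000400). Cdk1, the kinase that drives entry into mitosis, went from 7.94, 7.63 and 7.02 to 6.16, 5.73 and 5.57 (-1.72, SE 0.215, adjusted p = 0.00182), and was 3.28-fold lower. All sham arrays lay above all irradiated arrays for these genes.

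Ccnb1, the cyclin B1 partner of Cdk1, was at 7.48, 7.70 and 7.51 in sham and at 6.10, 5.77 and 5.92 in irradiated fractions (-1.63, SE 0.29, adjusted p = 0.0229). Top2a, the topoisomerase that untangles sister chromatids, was called in its 3 probe-sets (-2.24, -2.19 and -1.85). The brightest of them was at 8.26, 8.45 and 8.07 before and 6.43, 6.46 and 6.34 after IR, with little spread within either group, while the dimmest of them (-2.19) lost its call in every fit without a pair (highest adjusted p 0.215). Racgap1, which organises the cleavage furrow, fell by 1.85 on the log2 scale (SE 0.22, adjusted p = 0.00155), from 7.47, 7.75 and 7.08 to 5.65, 5.61 and 5.50. Plk1, a kinase of spindle assembly and exit from mitosis, had a smaller fall, from 7.89, 8.02 and 7.51 to 6.87, 7.12 and 6.85 (-0.86, SE 0.12, adjusted p = 0.00489). Cdk1, Ccnb1, Racgap1, Plk1 and this brightest Top2a probe-set stayed above the floor on every irradiated array.

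In all, 13 of the 23 mitosis genes on the array fell and none rose, against 0.528% of all genes called lower, and the list was chosen with results known. The remaining called members were Plk4 of centriole duplication (-2.27), the microtubule depolymerising kinesin Kif2c (-1.62), the spindle protein Hmmr (-1.56), the tubulin-binding Stmn1 (-1.53), securin (Pttg1, -1.52) and the checkpoint kinase Bub1b (-1.5, with its second probe-set of opposite sign). The median of the list was -1.5, and -1.40, -1.5 and -1.19 in pairs 1, 2 and 3, and 19 of the 23 genes were below 0 in all pairs, against 13.8% of all genes. Lmnb1 (-1.23, adjusted p = 0.122), Aurkb (-1.13, adjusted p = 0.471), Kif11 (-0.77) and the transcription factor Foxm1 (-0.59, adjusted p = 0.301) had negative values that were not called. The inhibitory kinase Wee1 was at -0.06, and Cdc25a and Smc2 lay at the floor on all 6 arrays and could not show a change. The count of called members fell to 6 without pair 1, 6 without pair 2 and 8 without pair 3, while the list median stayed between -1.52 and -1.34. It was 4 with the array lot as a block, and the median was -0.86 with a higher floor. With a pair left out, the calls of Plk4, Pttg1, Ccnb1, Hmmr, Kif2c, Bub1b and Stmn1 were lost at highest adjusted p of 0.236, 0.189, 0.150, 0.128, 0.121, 0.0903 and 0.0712. Dlgap5, a spindle protein outside the list, fell by 1.47 on the log2 scale and lost its call in the same way (adjusted p = 0.177 without pair 2).

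Genes were called without use of the sequences upstream of them, but the 4 shown here were picked by those sequences. The 250 bases before the start of these mitosis genes that fell hold both the CCAAT letters and the CHR letters TTTGAA. Hmmr and Pttg1 hold both as well and are not shown. Sequences are those of RefSeq (GRCr8), written 5′ to 3′ on the strand of the gene. Matches to CCAAT or its reverse complement ATTGG, and to TTTGAA or its reverse complement TTCAAA, are in capitals.
Kifc1 promoter, chr20:5000679-5000928, plus strand: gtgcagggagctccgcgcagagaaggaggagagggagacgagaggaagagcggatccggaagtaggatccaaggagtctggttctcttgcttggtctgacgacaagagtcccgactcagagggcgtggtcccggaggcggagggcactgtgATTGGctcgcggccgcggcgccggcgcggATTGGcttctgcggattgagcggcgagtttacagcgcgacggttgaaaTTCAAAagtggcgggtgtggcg
Cdk1 promoter, chr20:19265043-19265292, plus strand: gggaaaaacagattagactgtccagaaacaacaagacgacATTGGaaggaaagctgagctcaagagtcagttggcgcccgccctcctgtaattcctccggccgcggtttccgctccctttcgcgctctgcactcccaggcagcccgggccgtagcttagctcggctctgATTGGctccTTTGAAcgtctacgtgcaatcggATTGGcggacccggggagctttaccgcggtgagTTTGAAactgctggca
Top2a promoter, chr10:84473094-84473343, minus strand: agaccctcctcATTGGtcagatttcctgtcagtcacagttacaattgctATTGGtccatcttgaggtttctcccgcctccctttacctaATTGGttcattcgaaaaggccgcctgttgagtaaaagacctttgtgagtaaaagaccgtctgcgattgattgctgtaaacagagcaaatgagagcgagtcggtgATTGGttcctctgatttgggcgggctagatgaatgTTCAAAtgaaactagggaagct
Cdc20 promoter, chr5:137255800-137256049, minus strand: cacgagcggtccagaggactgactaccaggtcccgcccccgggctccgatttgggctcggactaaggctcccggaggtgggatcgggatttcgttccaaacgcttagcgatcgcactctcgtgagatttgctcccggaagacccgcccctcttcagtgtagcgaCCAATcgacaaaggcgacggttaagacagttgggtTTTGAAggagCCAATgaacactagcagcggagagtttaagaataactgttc
Matches to TTTGAA lay 22 bases before the start in Kifc1 and Top2a, at 72 and 16 bases in Cdk1 and at 51 bases in Cdc20, counted to the first base of the match. Of the 13 called mitosis genes 12 were found in the promoter table, and 9 held CCAAT, 6 held TTTGAA and the same 6 held both, while Plk4, Kif2c and Bub1b held neither. Over the 23 mitosis genes on the array (19 found) these shares were 78.9%, 52.6% and 47.4%, so that the called members did not stand out within the list. Among all genes of the array with a promoter (3871) they were 35.8%, 10.3% and 3.85%, and among the promoters of all genes (33469) 34%, 16.2% and 5.87%. For all called falls (28 of 30 genes found) they were 75%, 25% and 25%, and for called rises (17 of 20 found) 35.3%, 11.8% and 5.88%. Neither motif contains the other, though neighbouring matches can share a base, and a match describes the sequence only, not binding of a factor.

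DNA replication genes fell as well. Fam111a, a protease that works with PCNA at replication forks, went from 4.85, 5.62 and 4.88 to 3.04 in array 1 and the floor in arrays 2 and 3 (-2.25, SE 0.24, adjusted p = 0.000921). The helicase subunit Mcm6 was at 8.72, 8.41 and 8.17 in sham and at 7.16, 6.97 and 7.01 in irradiated fractions (-1.39, SE 0.17, adjusted p = 0.00176). Its partners Mcm5 and Mcm7 fell by 1.20 and 1.02 on the log2 scale, and the maintenance DNA methyltransferase Dnmt1 by 1.03. Irradiated arrays lay below all sham arrays in each of these genes.

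By the 50% rule, 5 of 21 replication genes fell (Top2a, which is in the mitosis list too, with Fam111a, Mcm5, Mcm7 and Dnmt1) and none rose, against 0.528% of all genes called lower. Mcm6 passed with 1 of 3 probe-sets. The median was -0.62, with -0.84, -0.73 and -0.63 in the 3 pairs, and 15 of the 21 were below 0 in all pairs, against 13.8% of all genes. Just outside the threshold were the flap endonuclease Fen1 (-0.92, adjusted p = 0.0605), the primase Prim1 (-0.97, adjusted p = 0.0712) and, with a positive sign, topoisomerase Top1 (0.33, adjusted p = 0.0718). Without 1 of the pairs the count fell to 2 or 3 genes, and the highest adjusted p was 0.180 for Mcm5, 0.108 for Dnmt1 and 0.0931 for Mcm7. Outside the list, Rad51ap1 of homologous recombination fell by 1.47 (SE 0.22, adjusted p = 0.00550) on the log2 scale and kept its call whichever pair was left out, but not under a block for the lot (adjusted p = 0.268). The fork protection gene Timeless went from 4.19, 4.37 and 3.73 to the floor on all irradiated arrays, so that its change of -1.31 is a lower limit (adjusted p = 0.0386, and up to 0.199 with a pair left out). Cyclin E1 (Ccne1), which starts S phase, was called in 1 probe-set (-1.11, adjusted p = 0.0198, and up to 0.137 with a pair left out), while its brighter one was at -0.12.

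**Figure D3:**
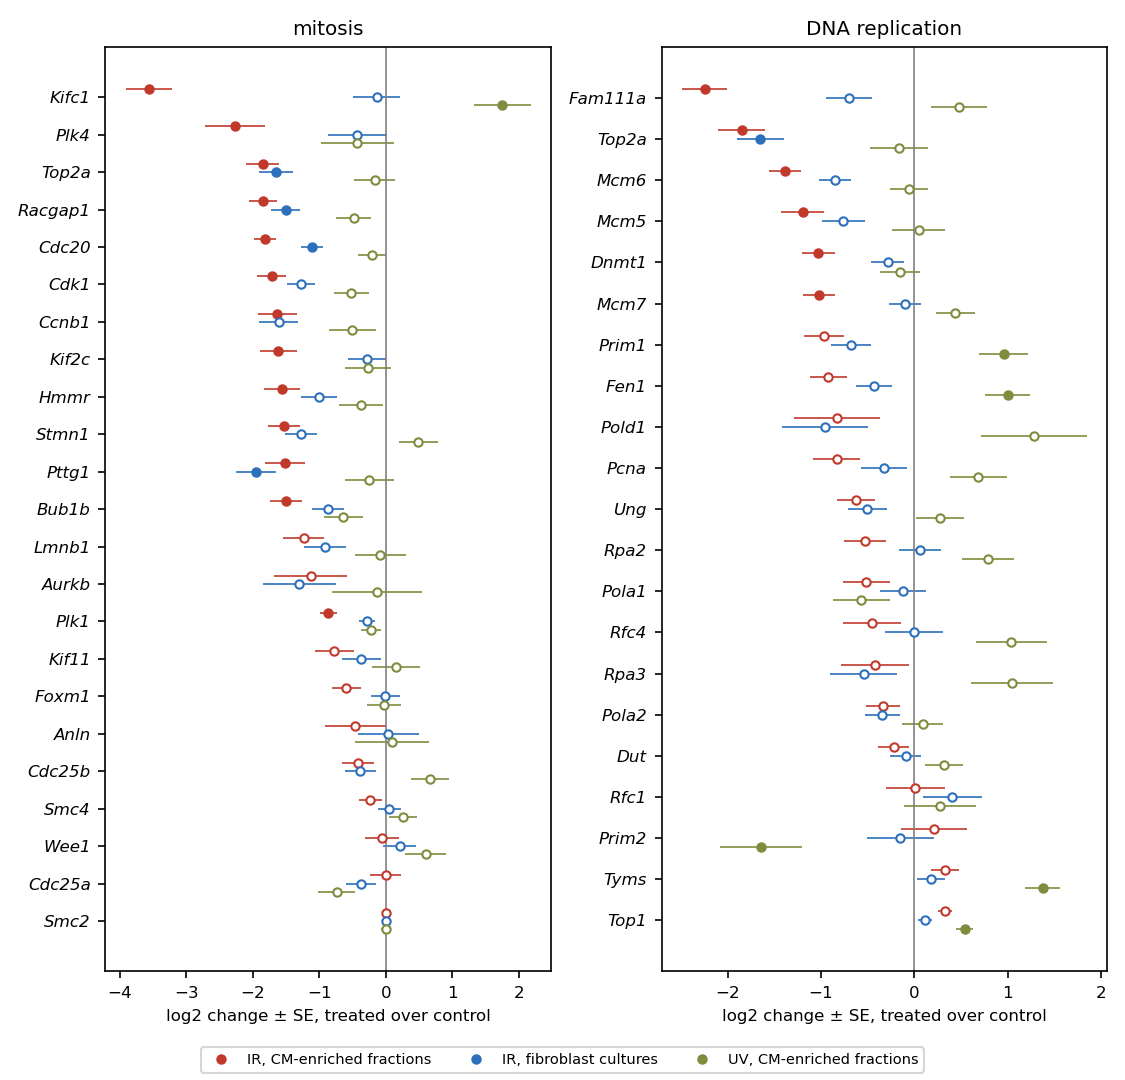
Log2 change ± SE, treated over control, of each gene (brightest probe-set) of the mitosis list (left) and the DNA replication list (right) after IR in CM-enriched fractions (red), IR in cultures of fibroblasts (blue) and UV in CM-enriched fractions (green), with filled symbols for an adjusted p under 0.05. Red symbols lie left of blue ones for 19 of 23 mitosis genes and 15 of 21 replication genes, with list medians of -1.5 and -0.43 for mitosis, and green symbols scatter on both sides of 0, with 15 of the 23 mitosis genes left of it (medians -0.17 for mitosis and 0.44 for replication).

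A smaller group of falls was in lipid synthesis. Insig1, the sterol sensor that restrains SREBP, fell in both of its probe-sets, from 7.74, 8.09 and 8.47 to 6.97, 7.04 and 7.67 in the brighter one (-0.88, SE 0.16, adjusted p = 0.0287) and by 0.67 on the log2 scale in the other. Farnesyl diphosphate synthase (Fdps) had a small change that was even between pairs, from 10.07, 10.56 and 10.42 to 9.71, 10.23 and 10.12 (-0.33, SE 0.04, adjusted p = 0.00317). Its groups overlapped, as sham array 1 lay below irradiated arrays 2 and 3, and the call comes from the comparison within pairs. Squalene synthase (Fdft1) fell by 0.46 (adjusted p = 0.0341) on the log2 scale in 1 of its 4 probe-sets.

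The fatty acid desaturases Scd and Scd2 are further SREBP targets. Scd went from 4.23, 5.99 and 5.76 to 3.55, 4.79 and 4.86 (-0.93, SE 0.13, adjusted p = 0.00317), and Scd2 from 7.61, 7.29 and 6.80 to 6.96, 6.59 and 5.53 (-0.87, SE 0.14, adjusted p = 0.0143). Levels differed between the experiments, and sham and irradiated arrays overlapped in both genes. The other 5 probe-sets of Scd2 gave -0.86 to -0.29 and, at the floor, 0, and none was called. Of 16 genes of cholesterol synthesis and its control, 1 fell by the 50% rule (Insig1) and none rose, against 0.528% of all genes called lower. The median was -0.33 (-0.28, -0.43 and -0.22 in the pairs), with 12 of 16 below 0 in all pairs, against 13.8% of all genes. Members without a call included Idi1 (-0.70, adjusted p = 0.165) and squalene epoxidase (Sqle, -0.39, adjusted p = 0.197). Without a pair, Insig1 was lost at adjusted p up to 0.192, Fdft1 at 0.195 and Scd2 at 0.108, while Fdps and Scd were kept. With the lot as a block Fdps was at an adjusted p of 0.133, and with a higher floor Scd was at 0.178. Without the replicate block Fdps, Fdft1, Scd and Scd2 were each at an adjusted p of 1.0 and Insig1 at 0.712 and 0.874.

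**Figure D4:**
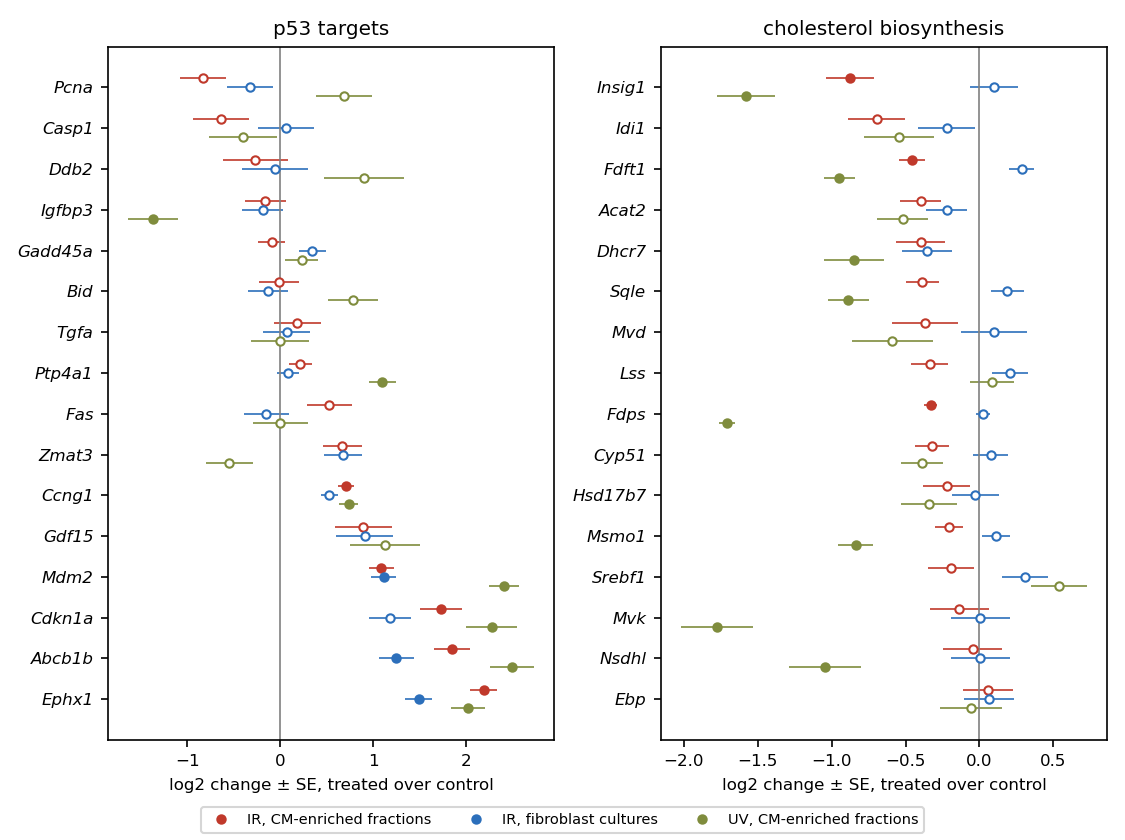
Log2 change ± SE, treated over control, of each gene (brightest probe-set) of the p53 target list (left) and the cholesterol biosynthesis list (right) in the same 3 comparisons and with the same symbols as in the plot of cell cycle genes. The 5 called p53 targets lie right of 0 in all 3 comparisons, and for cholesterol synthesis the medians were -0.33 after IR in CM-enriched fractions, 0.07 after IR in cultures of fibroblasts and -0.71 after UV in CM-enriched fractions.

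Of the remaining falls, Il1r1, a receptor for interleukin-1, went from 5.01, 5.26 and 4.47 to the floor in arrays 1 and 3 and 4.28 in array 2 (-1.63, adjusted p = 0.0153). Its call was lost without pair 1 (adjusted p = 0.0988) or pair 3 (adjusted p = 0.0903), and 1 of its other 3 probe-sets had a positive change. Nsg1, a protein of endosomal trafficking in neurons, fell by 0.74 and Pdcl, a co-chaperone of G protein assembly, by 0.46 on the log2 scale, and both were lost with a pair left out (highest adjusted p 0.202 and 0.233).

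Other stress pathways showed few or no calls. Of 31 oxidative stress enzymes of the NRF2 type none was called by the 50% rule (median 0.13, 11 above 0 in all pairs against 14.0% of all genes), with Gsta1 called in 1 of 3 probe-sets and Nqo1 at 0.54 (adjusted p = 0.417). None of 26 heat shock genes was called (median 0.00), nor any of 14 interferon-induced and MHC class I genes (median 0.14), 18 apoptosis regulators (median -0.05) or 17 nucleotide synthesis genes (median 0.12). Among 34 genes of inflammation none passed the 50% rule, with Il6 at 1.08 (adjusted p = 0.0686) and Mif at -0.50 (adjusted p = 0.0640) closest to the threshold beside Il1r1. Of 28 immediate early genes only Fosl1 rose, and Ddit3 of the integrated stress response was at 0.65 (adjusted p = 0.0713). Among 20 DNA repair genes Mgmt rose, and the damage-marking histone H2ax was at -0.77 (adjusted p = 0.100). Of 18 G1 cyclins and kinases Cdkn1a and Ccng1 rose and Ccne1 fell.

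Genes of the working CM, of the matrix and of the non-muscle cytoskeleton were largely without calls. None of 23 calcium handling genes, 24 potassium and sodium channels, 28 genes of fatty acid oxidation and 31 of the respiratory chain was called, with medians of 0.02, -0.01, 0.09 and -0.03. Among 13 fetal hypertrophy genes Sprr1a was the only one called, and skeletal actin (Acta1) was at -0.53 (adjusted p = 0.118). Of 44 collagen and matrix genes only Mmp2 rose, and of 34 genes of the non-muscle cytoskeleton only Stmn1 fell. A p above the threshold does not show that a gene was unchanged, and the fit can miss small changes with 3 pairs.

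**Figure D5:**
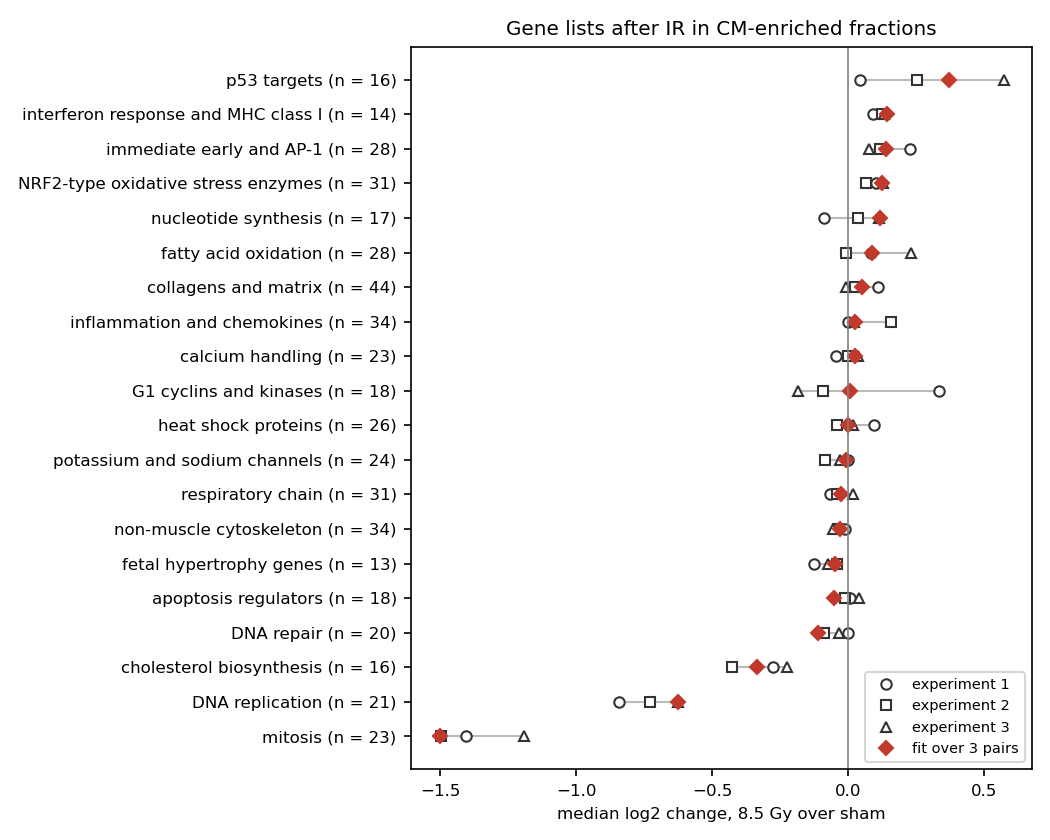
Median log2 change after IR in CM-enriched fractions for 20 gene lists (number of genes on the array in brackets), from the fit (filled) and within each of the 3 experiments (open). Mitosis (-1.5), DNA replication (-0.62) and cholesterol biosynthesis (-0.33) lie left of 0 and p53 targets (0.37) right of it in every experiment, and the medians of the fit for the other lists lie between -0.11 and 0.14, with a wider scatter within experiments (G1 cyclins and kinases from -0.18 to 0.33).

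The same dose called fewer probe-sets in cultures of fibroblasts, 3 higher (0.0343%) and 4 lower (0.0458%), or 0.0801% in all. By the 50% rule 3 mitosis genes were lower there (0.0633% of all genes) and 2 p53 targets higher (0.0422%). All 7 probe-sets were also called in CM-enriched fractions with the same sign, where they made up 7 of 64: Ephx1 (1.49 in fibroblasts), Abcb1b (1.25), Mdm2 (1.12), Pttg1 (-1.95), Top2a (-1.65), Racgap1 (-1.51) and Cdc20 (-1.11). Of the 39 falls, 20 were below 0 in all 3 fibroblast pairs, against 11.7% of all probe-sets, and of the 25 rises 11 were above 0 in all, against 9.99%. The median change in fibroblasts was -0.37 over the falls and 0.17 over the rises, against -1.47 and 0.97 in CM-enriched fractions, where these probe-sets had been chosen. A difference between the populations was called for 6 probe-sets (0.0686%), 3 in each direction (0.0343%), all of them among the 64. The populations were also cultured and harvested differently, and in these differences cell type and handling cannot be told apart. Sprr1a (0.17 in fibroblasts), Dpep1 (-0.21) and Hsd11b1 (-0.20) had a higher change in CM-enriched fractions, by 2.40, 1.61 and 0.81, at adjusted p of 0.0429, 0.0481 and 0.0484. Kifc1 (-0.14), Scd2 (0.57) and Scd (0.27) had a lower one, with differences of -3.43, -1.44 and -1.20, each at an adjusted p of 0.0429. Each of these 6 differences lost its call in at least 1 fit without a pair, with a highest adjusted p of 0.0685 for Sprr1a, 0.0958 for Kifc1, 0.102 for Scd2 and 0.123 for Scd, Dpep1 and Hsd11b1. For Cdkn1a (1.18 in fibroblasts, adjusted p = 0.0863), Ccnb1 (-1.61, adjusted p = 0.0734) and Cdk1 (-1.27, adjusted p = 0.0586) the values in fibroblasts were in the same direction without a call, and their differences between the populations were not called (0.55, SE 0.32, -0.02, SE 0.41, and -0.44, SE 0.30).

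UV called many more probe-sets in CM-enriched fractions, 753 higher (8.62%) and 713 lower (8.16%), or 16.8% in all, on 2 pairs. Of the 25 rises after IR, 10 were also called higher and 4 lower after UV, and of the 39 falls 6 were called lower and 1 higher. The 10 rises called after both were Ephx1 (2.02 after UV), Cdkn1a (2.28), Abcb1b (2.49), Mdm2 (2.41), Ccng1 (0.735), Rps27l (0.52), Atp6v1d (0.71), Tgm1 (0.91), Fosl1 (3.05) and Pla1a (2.05). The difference between IR and UV was called for Mdm2 (-1.32, SE 0.21, adjusted p = 0.00241), Fosl1 (-1.78, adjusted p = 0.0133) and Pla1a (-1.27, adjusted p = 0.00462), all higher after UV (for Pla1a 0.0081, and thus no longer higher after UV, with a higher floor), and not for Ephx1 (0.17, SE 0.23), Abcb1b (-0.65, SE 0.30), Cdkn1a (-0.55, SE 0.36) or Ccng1 (-0.02, SE 0.14). Mgmt and Hsd11b1, which rose after IR, fell after UV (-0.78, adjusted p = 0.0108, and -0.51, adjusted p = 0.00716), with differences of 1.80 and 1.13. Sprr1a (-0.45, adjusted p = 0.373) and Dpep1 (-0.13, adjusted p = 0.833) had no call after UV, and differed from IR by 3.01 and 1.54 (adjusted p = 0.000562 and 0.00454).

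Of the 13 mitosis genes that fell after IR, none was called lower after UV. Kifc1 was called higher (1.75, adjusted p = 0.0147), the widest difference (-5.31, SE 0.55, adjusted p = 0.000156), and differences were also called for Cdc20 (-1.61), Stmn1 (-2.02), Top2a (-1.69 in the brightest probe-set), Racgap1 (-1.36) and Cdk1 (-1.19). The other 7 had differences of -1.84 to -0.64 that were not called. In the replication list, Fam111a (-2.72), Mcm6 (-1.33) and Mcm7 (-1.46) differed from UV at adjusted p of 0.00119, 0.00887 and 0.00508, and Fen1 (1.0) and Prim1 (0.96) were called higher after UV. By the 50% rule 5 replication genes were higher after UV, against 10.2% of all genes, and 9 of the 16 cholesterol genes were lower, against 9.21%. Fdps was at -1.71 and Fdft1 at -0.95, with differences of 1.38 (adjusted p = 1.56e-06) and 0.49 (adjusted p = 0.0437), and Insig1 at -1.58 with a difference of 0.70 (adjusted p = 0.116). In total 34 of the 64 probe-sets differed between IR and UV (20 falls and 14 rises), against 9.02% of all probe-sets (4.55% higher and 4.46% lower after IR), and the IR change on which they had been chosen is 1 side of each difference. IR and UV were given in separate experiments with their own controls, and the study reports a larger share of CM in the fractions of the UV experiments.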

How the data were processed

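Each of the 35 samples was hybridised to 1 Affymetrix rat array. The deposited values are linear probe-set intensities. The authors read the arrays with the GeneChip software, and the algorithm behind the deposited intensities is not given in the sources used here. The trimmed mean per array shows that the deposited values were scaled to unlike levels. It was 1001.45 to 1001.69 on the IR arrays of CM-enriched fractions and 200.345 to 200.384 on those of fibroblasts. In the UV experiments it was 200.367 and 200.349 in pair 1, and 1001.67 and 1001.7 in pair 2. Both arrays of a pair thus had nearly the same level, and the part of this difference in the comparisons was not tested. The normalization and linear model of the study were applied to probe signals and are not in these intensities. The number of arrays limits the precision.

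From the intensities, arrays were scaled to a common 75th percentile, floored at the 20th percentile of all values (6.88, or 2.78 in log2), taken to log2 and quantile normalized. After removal of 59 controls, 8740 of 8799 probe-sets were tested with limma 3.58.1 in R 4.3.3 (statmod 1.5.0) by lmFit and eBayes with a variance trend, over all 35 arrays, with the numbered experiment as a block and Benjamini-Hochberg adjustment. The fit left 11 degrees of freedom, to which the prior added a median of 1.05. It was tested on simulated data. The study's titles number the samples, and deviations of same-numbered sham and irradiated arrays from their group means correlated (0.469, 0.218 and 0.313 in pairs 1, 2 and 3), so the numbers were taken as pairs. No 2 arrays held identical values. The p-values rest on a spread between samples that was pooled over all groups of the series. Nothing says that the samples came from separate animals, so that this spread cannot be read as one between animals.

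A single symbol was given for 7006 probe-sets, several for 308 and none for 1426, and 6985 matched the RefSeq gene table by gene number. Symbols are those of an old array design, updated through that table. For each of the 4736 genes the list values are of the brightest probe-set, and a gene counted as called if 50% or more of its probe-sets were called the same way. The genes named are the called ones with a single symbol, up to 4 further members of a list by p, members of the p53 and mitosis lists and the defining markers. Members and lists were chosen with earlier results of these data known. Promoters are the 250 bases before the start in RefSeq, matched by gene number. Alternatives were other scalings, a pseudocount, a higher floor, no dim probe-sets, no variance trend, other blocks (none, random, scan, lot), the 6 arrays alone, and leaving out each pair.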

Additional observations from a re-analysis of the deposited data

Results flagged for a closer look

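The change after IR differed between CM-enriched fractions and cultures of fibroblasts for 6 genes, by the test of the difference in the limma fit. The desaturases Scd and Scd2 had differences of -1.20 (SE 0.18) and -1.44 (SE 0.20), with changes of -0.93 and -0.87 in CM-enriched fractions and 0.27 and 0.57 in fibroblasts. Kifc1 of the mitotic spindle had a difference of -3.43 (SE 0.49) and Sprr1a one of 2.40 (SE 0.34). Each of these 4 had an adjusted p of 0.0429. The dipeptidase Dpep1 differed by 1.61 (SE 0.25, adjusted p = 0.0481) and the glucocorticoid-regenerating Hsd11b1 by 0.81 (SE 0.13, adjusted p = 0.0484). In the 3 fits that left out a pair, the adjusted p was up to 0.0685 for Sprr1a, 0.0958 for Kifc1, 0.123 for Scd, Dpep1 and Hsd11b1, and 0.102 for Scd2, so that each of the 6 calls was lost in at least 1 of them. None of the 6 was called without the replicate block.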

How the results depend on the processing

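No change of a called gene after IR turned its direction in any of 14 settings. All 64 called probe-sets had 1 direction in the 3 pairs, so most settings could not turn it. This holds for those that only change the pairs, the arrays used, the block or the variance trend. None of the 53 probe-sets was called in all settings, since the 6 arrays alone gave 0 calls for probe-sets, genes, mitosis genes and p53 targets. Of the 53, 22 were called whichever pair was left out, 48 when scaled without quantile normalization, 49 with the trimmed mean, 47 with a pseudocount, 40 with a higher floor, 38 with a random replicate block and 53 without the variance trend. Leaving out a pair gave 17 to 44 higher and 26 to 32 lower probe-sets, 10 to 31 higher and 15 to 18 lower genes, and 6 to 8 lower mitosis genes. Without the replicate block 14 probe-sets were higher and 23 lower, with 10 higher genes. A block for the array lot, which leaves only pair 2 to give the change, gave 49 higher probe-sets and 4 lower mitosis genes. The scan as a block, which leaves only pairs 1 and 2 to give the change, called 10 genes higher and 15 lower, with 8 mitosis genes.

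For the difference between CM-enriched fractions and fibroblasts (3 higher and 3 lower), 0 and 0 were called without the replicate block, 30 and 30 under the lot block, 6 and 14 with a higher floor, 1 and 1 with a random replicate block, 1 and 1 with the scan as a block, 1 and 5 with the trimmed mean, and 1 to 7 and 1 to 6 without a pair. Higher calls were 1 with a pseudocount, 1 without dim probe-sets and 0 when scaled without quantile normalization. For IR minus UV (398 higher and 390 lower) there were 101 and 138 without the replicate block and 200 and 152 with the lot. The difference of Pla1a between IR and UV (-1.27) turned to 0.0081 with a higher floor, which lies above the mean of its UV controls (3.34). Otherwise the cause of these shifts was not tested. A probe-set at the floor gives a lower limit of its change.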
